A study of Homo sapiens with 12 samples.

Results

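The CDK inhibitors and the retinoblastoma (pocket) proteins were represented by 10 of the 58174 genes listed in the TPM tables of U87 and U118 cells. They were taken by symbol and comprised CDKN1A and CDKN1B of the CIP/KIP family, CDKN2A, CDKN2B, CDKN2C and CDKN2D of the INK4 family, the phosphatase gene CDKN3, and RB1, RBL1 and RBL2 of the pocket protein family. Each symbol matched an Ensembl identifier in both tables.

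U-87 MG and U-118 MG are established human glioblastoma lines. Per the labels, cells of each line became resistant under continuous exposure to temozolomide (TMZ, an alkylating drug) at 50 μM and were compared with sensitive cells, in 3 libraries per group, 4 groups and 12 libraries in all. Per the methods of the study, the cells of all groups had been depleted of CD133+ and CD15+ cells and were grown with serum and BMP2, and the resistant cells came from aggregations that appeared after prolonged drug exposure of survivors. The comparison within a line asks how expression in resistant cells differed from that in sensitive cells of the same line. The labels do not say whether replicates were separate cultures, so p-values measure the spread between these libraries, which may be technical. Because the RNA is from bulk cells, fewer cells of a type and less RNA per cell cannot be told apart.

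TPM is a transcript abundance scaled for length and to one total per library. Read counts cannot be had from it, and the depth behind each value is therefore unknown. Between 13270 and 15290 genes reached 1 TPM per library. Mitochondrially encoded genes took 12.9% to 16.9% of TPM in U87 sensitive, 22.2% to 23.7% in U87 resistant, 7.42% to 19.7% in U118 sensitive and 13.2% to 29.9% in the libraries labelled U118 resistant. Of the glial markers, VIM lay between 4425 and 7149 TPM in all 12 libraries, whereas GFAP did not exceed 0.693 TPM, S100B did not exceed 0.281 TPM and SOX2 was listed at 0 in all U87 libraries. Of the markers of other cell types, the leukocyte genes PTPRC and CD3E, the endothelial gene CDH5 and the epithelial genes EPCAM and CDH1 stayed under 1 TPM in every library, and so did PECAM1. CD68, a lysosomal gene of macrophages that other cells also express, was read in every library. The summed TPM of the 3 fibroblast markers (DCN, LUM and PDGFRB) was 5.38 to 7.30 in U87 sensitive, 19.5 to 24.1 in U87 resistant, 77.2 to 90.8 in U118 sensitive and 13.1 to 19.6 in the libraries labelled U118 resistant, and its part in the results below was not tested.

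The 3 libraries labelled U118 resistant stood apart from those labelled U118 sensitive. Their Spearman's rho across 16382 genes was 0.808 to 0.839 with the U118 sensitive libraries, but 0.895 to 0.909 with U87 sensitive and 0.907 to 0.913 with U87 resistant libraries. They are given without a p, since genes do not replicate a condition. Of 92 genes that reached 10 TPM in all U118 sensitive libraries and stayed under 0.1 TPM in all U87 libraries, 59 were under 0.1 TPM in all 3 libraries labelled U118 resistant and 3 reached 10 TPM in all of them. Of 36 genes with the opposite pattern, 21 reached 10 TPM in all 3 libraries labelled U118 resistant and 2 stayed under 0.1 TPM. Whether these libraries come from U118 cells was not tested, and no U118 comparison can be made without them.

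Cyclin-dependent kinases (CDKs) drive cells through the division cycle when bound to cyclins. INK4 proteins bind CDK4 and CDK6 and keep them from D-type cyclins, while CIP/KIP proteins bind cyclin-CDK complexes more broadly, including those of CDK2. Active CDKs phosphorylate the pocket proteins, which in their unphosphorylated form hold E2F transcription factors and keep genes for DNA replication silent, and RBL1 and RBL2 also join the MuvB core in the DREAM complex, which represses cell cycle genes in quiescent cells. CDKN2A and CDKN2B, next to each other on chromosome 9, are among the genes most often deleted in glioblastoma, and loss of CDKN2C or RB1 occurs in a part of these tumours. CDKN1A is known to be induced after DNA damage.

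Promoter sequences are shown for the member with the strongest rise and for 2 members with a cell cycle motif upstream, since their levels are compared below. RefSeq windows of 250 bases before and 50 after a start site (GRCh38.p14) were found for all 10 genes, 14 windows in all. The stretches below hold no annotated exon base of their gene and run 5′ to 3′ on its strand, with motif matches in capitals. The CDKN1A start site used lies 2254 bases inside the annotated gene, so its stretch is not upstream of the whole gene.
CDKN1A, chr6:36678464-36678657, plus strand, GC boxes in capitals: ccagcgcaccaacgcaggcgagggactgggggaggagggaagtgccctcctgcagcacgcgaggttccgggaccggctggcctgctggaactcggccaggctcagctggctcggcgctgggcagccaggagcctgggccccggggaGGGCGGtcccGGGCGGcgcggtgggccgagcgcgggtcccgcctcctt
CDKN3, chr14:54396757-54396848, plus strand, the CHR element (its reverse complement) in capitals: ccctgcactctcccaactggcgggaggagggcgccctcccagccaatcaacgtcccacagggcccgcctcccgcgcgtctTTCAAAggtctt
RBL1, chr20:37095998-37096247, minus strand, E2F motifs in capitals: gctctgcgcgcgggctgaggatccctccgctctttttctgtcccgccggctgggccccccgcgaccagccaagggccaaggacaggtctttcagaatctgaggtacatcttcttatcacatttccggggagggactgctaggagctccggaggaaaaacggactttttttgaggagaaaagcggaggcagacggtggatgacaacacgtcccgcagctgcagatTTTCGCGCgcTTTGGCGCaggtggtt
The GC box GGGCGG, a letter string bound by SP1 family factors, occurred 4 times in the CDKN1A window on either strand, and the copies shown begin 104 and 94 bases before the start site. In CDKN3 the cell cycle homology region (CHR, TTTGAA), a motif of genes repressed through MuvB, lay on the opposite strand and began 170 bases before the start site. That start site lies 158 bases inside the annotated gene, and the stretch shown ends just before the gene. RBL1 held the E2F motifs TTTCGCGC and TTTGGCGC, beginning 26 and 16 bases before its start, and was the only one of the 10 genes with either form. Among 35116 windows of the same length, 45.0% held a GC box, 15.2% a CHR and 1.15% either E2F form, counted on both strands. CHR also occurred in 1 window of RBL2, and the TATA box TATAAA, present in 11.5% of windows, occurred in none of the 14. The window for RB1 lies 172724 bases inside the gene and not at its main start. Matches are descriptions of letters and not evidence of binding.

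Expression was compared with limma on log2(TPM + 1), which understates the change of low genes, over genes reaching 1 TPM or more in 3 or more of a line's 6 libraries. A gene was called when the Benjamini-Hochberg adjusted p over all genes tested was below 0.05 and the log2 fold change was 1 or more in size. With 3 libraries a side, the smallest two-sided p of an exact permutation test is 0.1, so none is given. The typical gene was itself lower in resistant cells, with a median of -0.245 over 13845 genes tested in U87 and of -0.522 over 15527 in U118, and dividing each library by its median ratio to the others (median-ratio scaling) brought it to -0.0135 and -0.0232.

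In U87, 7 of the 10 genes passed the filter, of which 1 (CDKN1A) was called higher and 2 (CDKN2D and CDKN3) were called lower in resistant cells. Among all genes tested, 3.03% were called higher and 7.79% lower, 10.8% in all. The U87 groups did not overlap for CDKN1A, with resistant libraries above, nor for CDKN2D, CDKN3, RB1 and RBL1, with resistant libraries below, against 13.6% of all genes above and 39.8% below. In U118, 8 of the 10 passed, of which 1 (CDKN1A) was called higher and 3 (CDKN1B, CDKN2C and RB1) were called lower, against 8.64% and 26.6% of all genes, 35.3% together. There the groups did not overlap for CDKN1A, above, nor for CDKN1B, CDKN2C, RB1 and RBL1, below, against 15.7% and 42.9% of all genes. CDKN2C passed only through the sensitive group, so its presence among the tested genes is not independent of its direction. The median log2 fold change of the members tested was -0.67 in U87 and -0.63 in U118. With TPM recomputed without mitochondrially encoded genes, the same counts were obtained in both lines. With median-ratio scaling U87 kept CDKN1A higher and CDKN3 lower, where 4.79% of all genes were higher and 3.92% lower (8.71% in all). U118 kept CDKN1A higher and CDKN2C lower, where 15.2% of all genes were higher and 12.9% lower (28.1% in all).

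**Figure D1:**
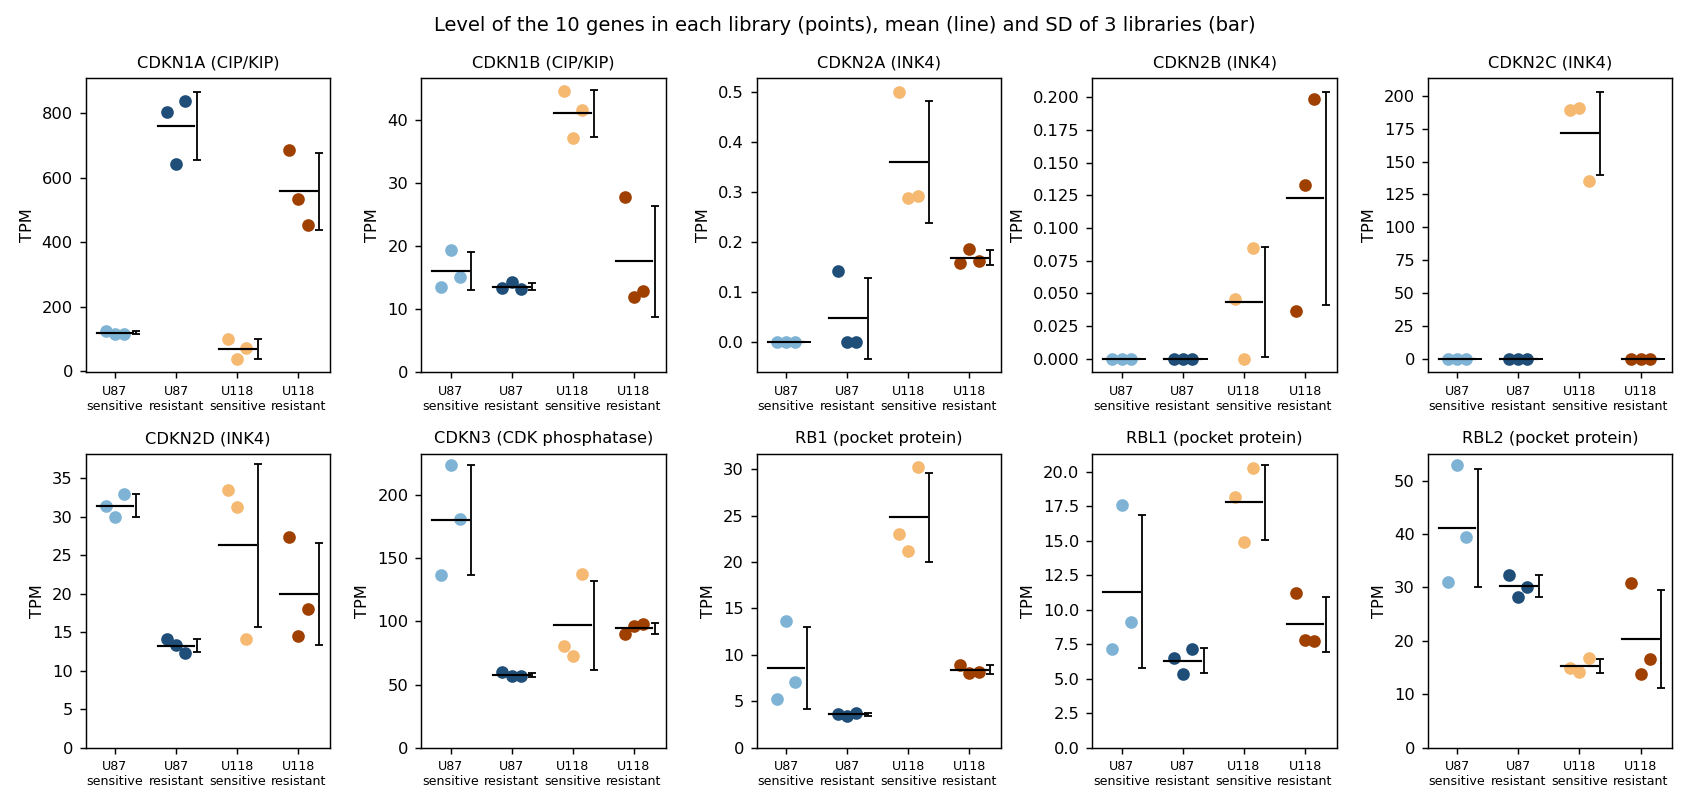
TPM of each of the 10 genes (vertical axis, linear, a separate scale per panel) in the 12 libraries, with points for libraries, a line for the mean and a bar for the SD of 3 libraries. CDKN1A lies between 453 and 838 TPM in the 6 resistant libraries and at 125 TPM or less in the 6 sensitive ones, and CDKN2C is high only in the 3 U118 sensitive libraries.

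The CIP/KIP gene CDKN1A encodes p21 (chromosome 6, 36676460 to 36687339, GRCh38, plus strand). Its TPM was 125, 117 and 117 in the U87 sensitive libraries and 804, 642 and 838 in the U87 resistant ones. All 3 resistant libraries stood far above the sensitive ones, and the log2 fold change was 2.65 (SE 0.11, limma adjusted p = 3.02e-05). In U118 it was 101, 39.4 and 71.2 TPM in sensitive libraries and 687, 534 and 453 TPM in those labelled resistant. The sensitive libraries spread more widely here than in U87, but again no library overlapped the other group, and the log2 fold change was 3.04 (SE 0.34, adjusted p = 0.000114). By rank among all genes, CDKN1A moved from positions 1255 to 1369 in U87 sensitive to 130 to 171 in U87 resistant libraries, and from 1688 to 4167 in U118 sensitive to 174 to 238 in the libraries labelled U118 resistant. The rise was 2.90 and 3.56 above the all-gene median in U87 and U118, and it was called under every alternative tried in both lines. The U118 value rests on the libraries labelled U118 resistant, and whether these come from U118 cells was not tested. An antisense transcript, DINOL, overlaps 951 bases of the CDKN1A gene on the opposite strand, and a use of strand in the counting is not stated.

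CDKN1B, the other CIP/KIP member, encodes p27 (chromosome 12, 12715058 to 12722371). In U87 it was 13.6, 19.4 and 15.1 TPM in sensitive and 13.4, 14.2 and 13.1 TPM in resistant libraries. The groups overlapped, and the log2 fold change of -0.21 (95% interval -0.57 to 0.15, adjusted p = 0.31) was -0.08 without sensitive replicate 2 and turned to 0.03 with median-ratio scaling. U118 sensitive libraries held 44.5, 37.1 and 41.5 TPM and those labelled U118 resistant 27.8, 11.9 and 12.9 TPM. Every sensitive library was above every library labelled resistant, with a log2 fold change of -1.28 (SE 0.32, adjusted p = 0.00915). With median-ratio scaling it was -0.74 (adjusted p = 0.0132) and fell short of the fold threshold.

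The balance of the CIP/KIP genes was read as a ratio chosen after the values were seen. It lay further towards CDKN1A in every resistant library than in any sensitive library of its line. In U87, where the CDKN1B groups overlapped, this repeats the rise of CDKN1A and is no separate result. How often ratios of other gene pairs separate the groups was not counted. The ratio of CDKN1A to CDKN1B TPM, which no scaling of a library can change, was 9.23, 6.0 and 7.72 in U87 sensitive libraries and 60.2, 45.1 and 64.0 in U87 resistant ones. It was 2.28, 1.06 and 1.72 in U118 sensitive libraries and 24.7, 44.8 and 35.1 in those labelled U118 resistant. Means were 7.65 ± 1.61 and 56.5 ± 10.03 in U87 and 1.69 ± 0.608 and 34.9 ± 10.04 in U118 (SD, n = 3 each), with no overlap between groups of a line. The third gene of the family, CDKN1C (p57), was listed at 0 in the U87 libraries and in those labelled U118 resistant, and lay between 0.0634 and 0.284 TPM in U118 sensitive ones.

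Of the INK4 genes, CDKN2C encodes p18 (chromosome 1, 50960745 to 50974633, plus strand) and was listed at 0 in all 6 U87 libraries. In U118 sensitive libraries it was at 189, 190.5 and 135.0 TPM, where it ranked between positions 810 and 1054 among all genes, and in those labelled U118 resistant at 0, 0.0301 and 0 TPM. The U118 groups were thus separated by their whole range. The gene passed the filter only through the sensitive libraries, so it could only be called lower. Its log2 fold change by limma was -7.40 (SE 0.23, adjusted p = 1.97e-07), and this p is no support for its direction. This size is set largely by the pseudocount: it was -10.6 with 0.1 TPM and -15.7 with 0.001 TPM in place of 1 TPM. CDKN2C is among the 92 genes described above that are on in U118 sensitive and off in U87 libraries.

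The neighbours of CDKN2C on chromosome 1 were examined in order, with positions from GENCODE 29. FAF1, an adaptor of the ubiquitin system that ends at 50960263, just before CDKN2C, had a like pattern, at 44.0, 44.9 and 38.3 TPM in U118 sensitive libraries, 0.0109, 0.0110 and 0 TPM in those labelled U118 resistant, and 0 TPM in U87 apart from 0.0144 TPM in 1 resistant library. DMRTA2, a transcription factor gene beyond FAF1, was at 7.90, 7.15 and 5.47 TPM in U118 sensitive libraries and was listed at 0 in the other 9. On the far side, RNF11 was read in all libraries, from 25.4 to 77.9 TPM, and EPS15 from 7.05 to 15.6 TPM. TTC39A, between them, lay under 0.43 TPM except at 5.13, 5.06 and 5.85 TPM in the libraries labelled U118 resistant. The genes at or near 0 in U87 and in the libraries labelled U118 resistant thus lie side by side from DMRTA2 (start 50417550) to CDKN2C (end 50974633), and expression was read again from RNF11 (start 51236271). ELAVL4 and C1orf185 did not exceed 0.0873 TPM in any library, so they cannot show whether they share this pattern. DNA was not measured, and the cause of the pattern was not tested.

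**Figure D2:**
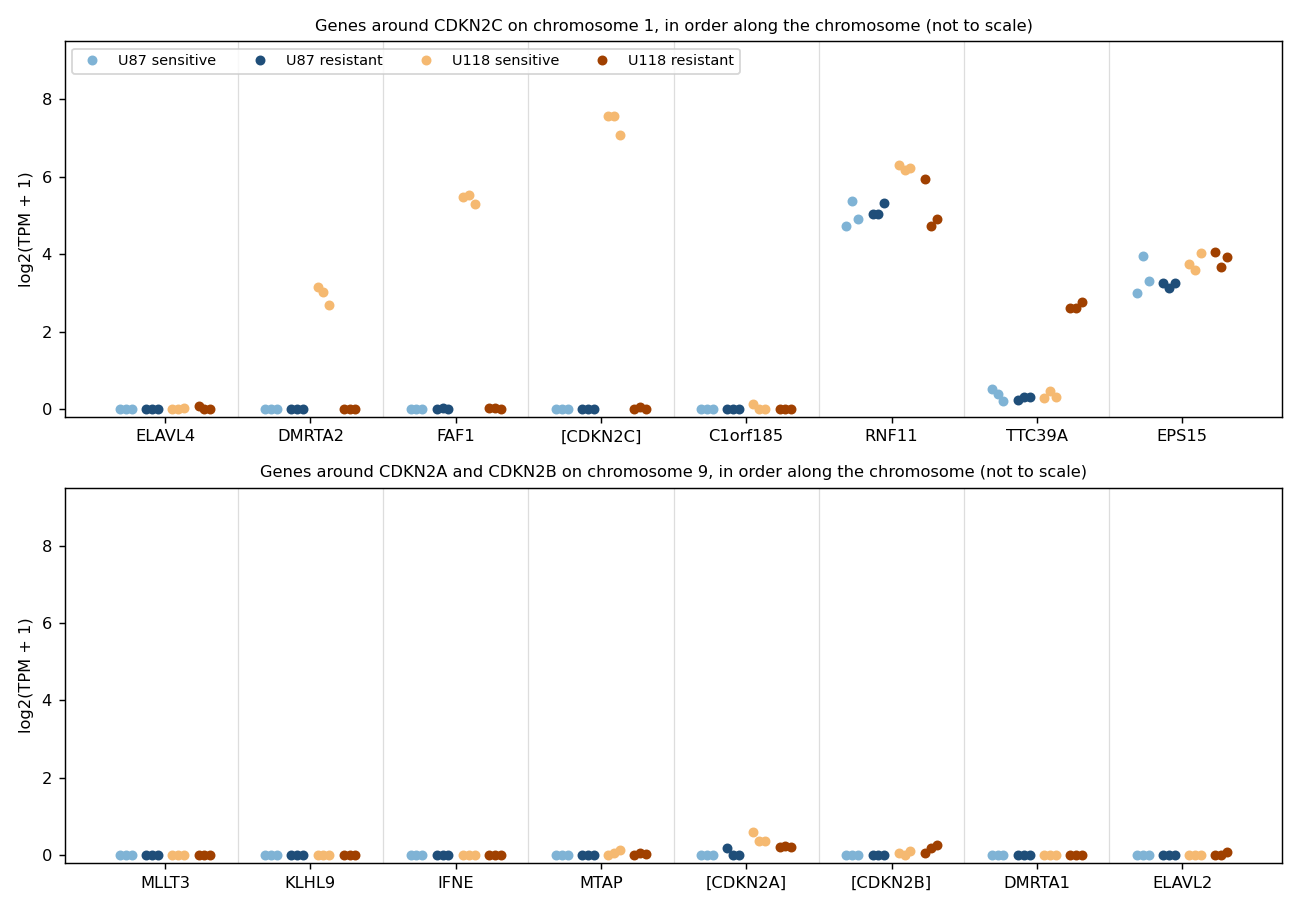
log2(TPM + 1) of the genes around CDKN2C (upper panel) and around CDKN2A and CDKN2B (lower panel), 12 libraries per gene coloured by group, genes in chromosome order but not to scale. DMRTA2, FAF1 and CDKN2C are high only in the U118 sensitive libraries, and all 8 genes of the lower panel are at or near 0 in every library.

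CDKN2A and CDKN2B were near 0 throughout. CDKN2A encodes p16 and, from another start, ARF (chromosome 9, 21967753 to 21995301, minus strand), which a gene-level value cannot separate. It was listed at 0 in all U87 sensitive libraries and at 0.141, 0 and 0 TPM in U87 resistant ones. In U118 it was 0.501, 0.287 and 0.293 TPM in sensitive and 0.157, 0.186 and 0.162 TPM in libraries labelled resistant. CDKN2B, the gene of p15 (chromosome 9, 22002903 to 22009363, minus strand), was listed at 0 in all 6 U87 libraries, at 0.0454, 0 and 0.0846 TPM in U118 sensitive and at 0.0369, 0.133 and 0.199 TPM in libraries labelled U118 resistant. Both were below the filter in each line, and the 2 genes are alike in part of their sequence, so these small values may be shared between them. Of their neighbours, MLLT3, KLHL9, IFNE and DMRTA1 were listed at 0 in all 12 libraries, MTAP did not exceed 0.0962 TPM and ELAVL2 did not exceed 0.0552 TPM. The antisense RNA CDKN2B-AS1 was listed at 0 in every library. The similarly named CDKN2AIP and CDKN2AIPNL, which lie elsewhere and are not inhibitors, were read in every library, at 2.18 to 12.1 TPM and 51.0 to 111 TPM.

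CDKN2D encodes p19 (chromosome 19, 10566462 to 10569059, minus strand) and was the only INK4 gene read in all libraries. In U87 it was 31.4, 29.9 and 32.9 TPM in sensitive and 14.1, 13.3 and 12.3 TPM in resistant libraries. The groups were tight and apart, and the gene fell by 1.19 on the log2 scale (SE 0.10, adjusted p = 0.0003), or by 0.94 relative to all genes. With median-ratio scaling the change was -0.94 (adjusted p = 0.00161), just short of the fold threshold. The U118 values were 33.5, 31.2 and 14.1 TPM in sensitive and 27.3, 14.5 and 17.98 TPM in libraries labelled resistant. These overlapped, with sensitive replicate 3, whose mitochondrial share of 19.7% was the highest of its group, lower than any library labelled resistant. The log2 fold change of -0.33 (95% interval -1.16 to 0.49, adjusted p = 0.46) was -0.72 (adjusted p = 0.0982) without that library and 0.20 with median-ratio scaling.

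Summed over the 4 genes, INK4 TPM was 31.4 ± 1.47 in U87 sensitive, 13.3 ± 0.958 in U87 resistant, 198.2 ± 42.2 in U118 sensitive and 20.3 ± 6.55 in the libraries labelled U118 resistant (SD, n = 3 each). CDKN2C made up 86.96% of it in U118 sensitive cells and CDKN2D 12.8%. In the other groups CDKN2D made up 100% (U87 sensitive), 99.7% (U87 resistant) and 98.3% (labelled U118 resistant). The ratio of CDK4, a kinase that INK4 proteins bind, to CDKN2D was 13.3 ± 1.14 in U87 sensitive and 23.1 ± 2.36 in U87 resistant libraries, without overlap. In U118 it was 12.8 ± 1.80 and 12.04 ± 2.06, with overlap. This ratio was chosen after the values were seen, and in U87 it draws on the fall of CDKN2D given above. How often ratios of other gene pairs separate the groups was not counted.

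CDKN3 encodes a phosphatase that acts on CDK2 (chromosome 14, 54396849 to 54420218, plus strand), and its own RNA is known to peak late in the cycle. It was 136, 223 and 181 TPM in U87 sensitive and 59.7, 56.5 and 56.9 TPM in U87 resistant libraries. The resistant libraries were close together and all below the sensitive ones, and CDKN3 fell by 1.60 on the log2 scale (SE 0.17, adjusted p = 0.000606). With median-ratio scaling it was called as well, at -1.34 (adjusted p = 0.000181). U118 libraries held 80.6, 72.5 and 137 TPM in sensitive and 89.8, 95.9 and 98.0 TPM in libraries labelled resistant. The resistant values lay inside the range of the sensitive ones, with a log2 fold change of 0.02 (95% interval -0.57 to 0.62, adjusted p = 0.949) that was -0.15 without sensitive replicate 2 and 0.58 with median-ratio scaling.

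Among the pocket proteins, RB1 and RBL1 were lower in every resistant library than in any sensitive library of the same line. The same held for 39.8% of all genes tested in U87 and 42.9% in U118. RB1 (chromosome 13, 48303726 to 48599436, plus strand) was 5.22, 13.6 and 7.03 TPM in U87 sensitive and 3.64, 3.43 and 3.72 TPM in U87 resistant libraries. Sensitive replicate 2 was the highest of its group, as it was for RBL1, RBL2 and CDKN3. The log2 fold change was -0.97 (SE 0.31, adjusted p = 0.0431), below the fold threshold, but -1.24 (adjusted p = 0.0157) and called without sensitive replicate 1, and -1.12 and called with a pseudocount of 0.1 TPM. Without sensitive replicate 2 it was -0.62 (adjusted p = 0.0221). In U118 RB1 was 23.0, 21.2 and 30.3 TPM in sensitive and 8.94, 8.05 and 8.17 TPM in libraries labelled resistant, and it fell by 1.45 on the log2 scale (SE 0.23, adjusted p = 0.000916). Relative to all genes the change was -0.73 in U87 and -0.92 in U118, and with median-ratio scaling it was -0.74 and -0.92, called in neither line. LPAR6 and RCBTB2 overlap RB1 on the opposite strand.

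RBL1 encodes p107 (chromosome 20, 36996349 to 37095995, minus strand). It was 7.18, 17.6 and 9.13 TPM in U87 sensitive and 6.46, 5.36 and 7.12 TPM in U87 resistant libraries. The highest resistant library lay just under the lowest sensitive one, and the log2 fold change of -0.67 (SE 0.31, adjusted p = 0.128) was not called. Without sensitive replicate 2 it was -0.32 (adjusted p = 0.173), and without sensitive replicate 1 it was -0.91 (adjusted p = 0.0459). In U118 it was 18.2, 14.9 and 20.3 TPM in sensitive and 11.2, 7.83 and 7.73 TPM in libraries labelled resistant, a log2 fold change of -0.93 (SE 0.25, adjusted p = 0.0128) under the fold threshold. Without resistant replicate 1, the highest of its group, it was -1.09 (adjusted p = 0.00139) and called, and without sensitive replicate 2 it was -1.04 (adjusted p = 0.0288) and called.

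RBL2 encodes p130, the main pocket protein of the DREAM complex (chromosome 16, 53433977 to 53491649, plus strand). It was 30.9, 52.9 and 39.5 TPM in U87 sensitive and 32.3, 28.2 and 30.1 TPM in U87 resistant libraries, which overlapped (log2 fold change -0.40, 95% interval -0.85 to 0.05, adjusted p = 0.136, and -0.21 without sensitive replicate 2). U118 values were 14.8, 14.2 and 16.7 TPM in sensitive and 30.9, 13.7 and 16.7 TPM in libraries labelled resistant. On TPM as deposited the mean was raised by resistant replicate 1 alone. The log2 fold change was 0.32 (adjusted p = 0.396) with it and -0.01 (adjusted p = 0.977) without it. With median-ratio scaling the log2 fold change was 0.85 (adjusted p = 0.00587), under the fold threshold. By rank among all genes, RBL2 stood higher in every library labelled U118 resistant (positions 4587, 5877 and 5520) than in the U118 sensitive ones (7185 to 7778). AKTIP overlaps 610 bases of RBL2 on the opposite strand.

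**Figure D3:**
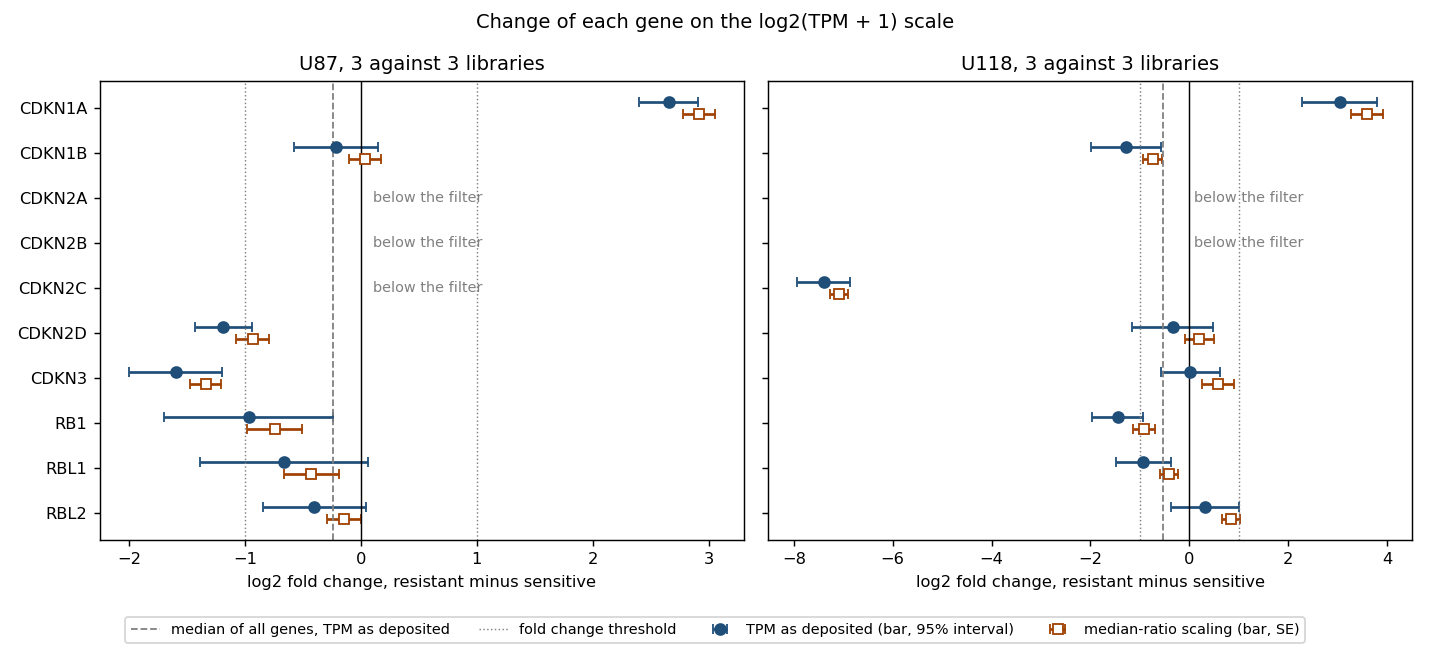
log2 fold change of each gene, resistant minus sensitive, for U87 (left) and U118 (right), with filled circles and 95% intervals for TPM as deposited and open squares with SE bars for median-ratio scaling. The dashed line is the median of all genes (-0.245 and -0.522) and the dotted lines the fold threshold of 1, past which CDKN1A lies in both lines, CDKN3 in U87 and CDKN2C in U118 under both scalings.

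The makeup of the pocket protein family, which is free of library scaling, was read from ratios chosen after the values were seen. How often ratios of other gene pairs separate the groups was not counted. By these ratios RB1 took a smaller part in the libraries labelled resistant. Mean RB1 was 8.39 TPM in the libraries labelled U118 resistant, beside 24.8 in U118 sensitive and 8.62 in U87 sensitive. Whether the former come from U118 cells was not tested. The ratio of RBL2 to RB1 was 5.93, 3.88 and 5.62 in U87 sensitive and 8.86, 8.22 and 8.10 in U87 resistant libraries, and 0.644, 0.669 and 0.552 in U118 sensitive and 3.46, 1.71 and 2.04 in libraries labelled U118 resistant. All resistant libraries were above all sensitive ones of the same line. The ratio of RBL1 to RB1 did not overlap either, with 1.32 ± 0.0472 in sensitive and 1.75 ± 0.178 in resistant cells of U87, and 0.720 ± 0.0616 and 1.06 ± 0.172 in those of U118 (SD, n = 3 each). RBL2 to RBL1 was 0.865 ± 0.0770 and 2.22 ± 0.501 in U118, without overlap, and 3.88 ± 0.756 and 4.83 ± 0.536 in U87, with overlap. The sum of the 3 genes was 61.0 ± 20.9 TPM in U87 sensitive and 40.1 ± 2.79 TPM in U87 resistant libraries, and 57.8 ± 8.68 and 37.7 ± 11.6 TPM in U118.

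**Figure D4:**
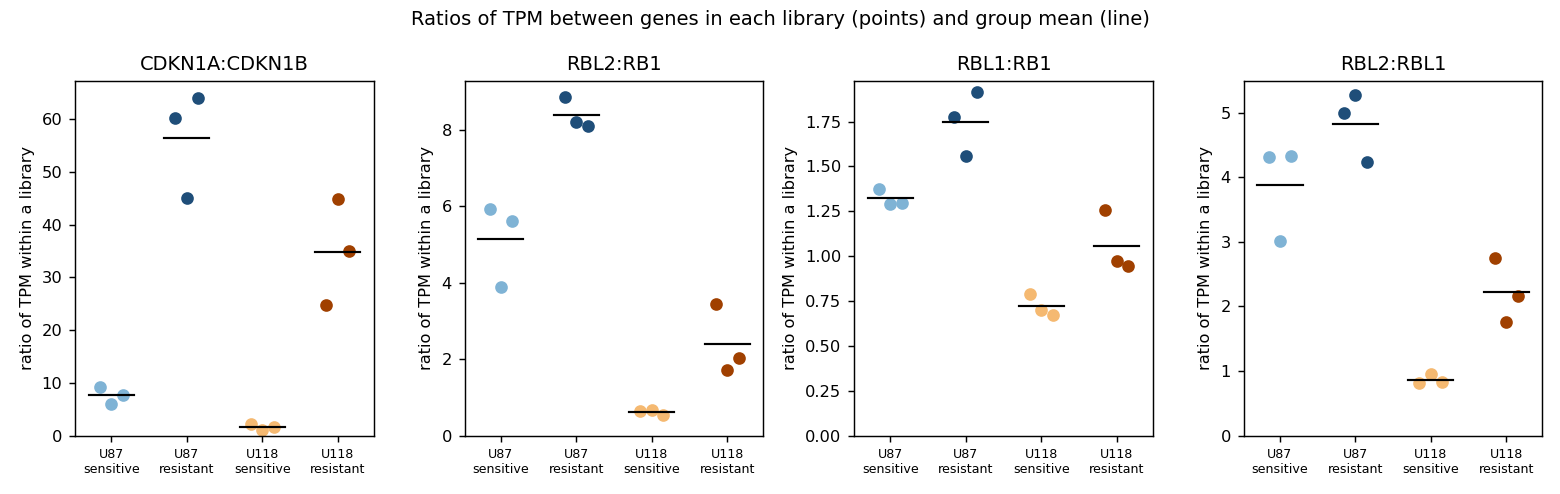
Ratios of TPM between 2 members within a library (vertical axis, linear from 0), with a point per library and a line at the mean of 3. CDKN1A:CDKN1B, RBL2:RB1 and RBL1:RB1 are higher in each resistant library than in any sensitive library of the same line, while RBL2:RBL1 overlaps in U87. The ratios were chosen after the values were seen.

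Since TPM is per transcript length, levels can be ordered between genes. In U87 sensitive libraries the order of mean TPM was CDKN3, CDKN1A, RBL2, CDKN2D, CDKN1B, RBL1 and RB1, and the neighbours RBL2 and CDKN2D, CDKN1B and RBL1, and RBL1 and RB1 overlapped in range. In U87 resistant libraries CDKN1A stood at the top and CDKN3 next, and CDKN1B and CDKN2D were the only neighbours among the 7 genes read that overlapped. In U118 sensitive libraries CDKN2C, CDKN3, CDKN1A and CDKN1B formed a chain at the top in which each overlapped the next, above CDKN2D and RB1, and then RBL1 and RBL2. In the libraries labelled U118 resistant the order was CDKN1A, CDKN3, then RBL2, CDKN2D and CDKN1B with overlapping ranges, then RBL1 and RB1, which also overlapped.

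The change in resistant cells was compared between the lines with an interaction term over all 12 libraries, called at an adjusted p below 0.05 alone. It was called for 3 of the 8 members tested, 1 higher in U118 (CDKN3) and 2 lower (CDKN1B and CDKN2C), against 15.5% higher and 22.6% lower of 16382 genes, 38.1% in all. CDKN2C entered the fit only through the U118 sensitive libraries and was at 0 in U87, so its difference (-7.40, U118 minus U87) repeats its change in U118 and is no separate result. The change of CDKN3 was higher in U118 by 1.62 (SE 0.32, adjusted p = 0.00168), with the fall in U87 on one side and overlapping groups in U118 on the other. For CDKN1B the difference was -1.06 (SE 0.37, adjusted p = 0.0405). Leaving out any library but U87 sensitive replicate 2 or U118 resistant replicate 1 took the adjusted p above 0.05, to 0.101 at most. For CDKN1A, called higher in both lines as labelled, the difference was 0.39 (95% interval -0.46 to 1.24, adjusted p = 0.46). Whether the libraries labelled U118 resistant come from U118 cells was not tested. RB1 had a difference of -0.48 (-1.31 to 0.36, adjusted p = 0.352), which was -0.83 (adjusted p = 0.033) and called without U87 sensitive replicate 2, and RBL1 of -0.26 (-1.12 to 0.60, adjusted p = 0.636). For CDKN2D and RBL2 the differences were 0.85 and 0.72 (adjusted p = 0.128 and 0.15). Both were called with median-ratio scaling, at 1.09 (adjusted p = 0.0219) and 0.94 (adjusted p = 0.00559), where 21.4% of 16116 genes were called higher and 20.5% lower, 41.8% in all.

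The partners of the inhibitors were read from 5 gene lists, and the counts stand beside the same share over all genes given above. The kinases and cyclins bound by the inhibitors (10 genes, 9 tested in each line) had 0 called higher by limma in U87, with 1 at an unadjusted p below 0.05, and 1 lower (CCNA2, cyclin A2, -1.49), and 1 higher and 3 lower in U118. There CCNE1, a cyclin partner of CDK2, rose by 1.89, from 10.7, 9.05 and 9.80 TPM in sensitive to 55.8, 33.2 and 32.4 TPM in libraries labelled resistant, while CCNA2 (-1.88), CCNE2 (-1.34) and CCND1 (-1.03) fell. The list's median was -0.14 in U87 and -0.77 in U118, beside -0.245 and -0.522 over all genes. Of all genes, 3.03% were called higher and 7.79% lower in U87, and 8.64% and 26.6% in U118. With median-ratio scaling the U118 list had 2 higher and 1 lower: CCND3 was called higher (1.01), CCNE2 (-0.82) and CCND1 (-0.47) were not called, and the medians were 0.12 in U87 and -0.22 in U118.

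The E2F and MuvB genes (17) comprise E2F factors, their partners and MuvB subunits, and not all of them bind pocket proteins. In U87, 3 of 16 were called lower by limma, namely E2F5 (-2.39), LIN9 (-1.79) and MYBL2 (-1.52), against 7.79% of all genes. There 0 were called higher (2 at an unadjusted p below 0.05), against 3.03%. In U118, 1 was called higher and 6 lower of 17, against 8.64% and 26.6% of all genes. MYBL2, a transcription factor that joins MuvB in dividing cells, moved in opposite directions: it was 328, 305 and 313 TPM in U87 sensitive and 112, 109 and 107 TPM in U87 resistant libraries, but 37.4, 39.2 and 39.0 TPM in U118 sensitive and 109, 175 and 164 TPM in libraries labelled U118 resistant (1.90). E2F7, a repressor of E2F targets, was at 41.5, 53.3 and 52.7 TPM in U118 sensitive libraries, listed at 0 in all 3 labelled U118 resistant, and at most 0.134 TPM in U87. It is 1 of the 6 called lower in U118, where it passed the filter only through the sensitive libraries and could only be called lower. E2F5 (-1.71) and E2F3 (-1.61) also fell in U118. The list's median was -0.64 in U87 and -0.34 in U118, beside -0.245 and -0.522 over all genes. With median-ratio scaling the U118 counts turned to 4 higher and 3 lower and the median to 0.17, as E2F1 (1.31), E2F2 (1.18) and E2F4 (1.01) were called higher and TFDP2, LIN9 and LIN54 were no longer called. The U87 list then had 1 higher (LIN37, 1.13) and 3 lower, with a median of -0.39.

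Of the 24 E2F target genes of DNA replication, 0 were called higher by limma, with 2 in U87 and 0 in U118 at an unadjusted p below 0.05. In U87, 3 were called lower (MCM2 -1.14, CHEK1 -1.11 and GINS2 -1.10) with a median of -0.56, beside 7.79% of all genes and their median of -0.245. In U118 8 were called lower, led by GINS1 (-2.19), CHEK1 (-1.82), PCNA (-1.43) and UHRF1 (-1.38). The list's median there was -0.82, beside 26.6% of all genes called lower and their median of -0.522. The 18 late cell cycle genes, which act in G2 and mitosis, all had log2 fold changes below 0 in both lines as deposited, but AURKB (0.24) and MKI67 (0.09) lay above 0 in U118 with median-ratio scaling, neither of them called. In U87 13 were called lower, led by CCNB2 (-1.90), CCNB1 (-1.62), MKI67 (-1.58) and BUB1 (-1.505), and in U118 14, led by TTK (-2.51), TOP2A (-1.87), CENPF (-1.64) and CCNF (-1.61). Their medians were -1.34 and -1.26, beside all-gene medians of -0.245 and -0.522, which also lie below 0. Of all genes, 7.79% were called lower in U87 and 26.6% in U118. With median-ratio scaling 10 and 6 of the late cell cycle genes were called lower, against 3.92% and 12.9% of all genes, and the E2F targets had 0 and 2.

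The 20 regulators of the inhibitors (19 tested in each line) had 0 called higher in U87 (2 at an unadjusted p below 0.05) and 1 lower, SKP2 (-1.61), which marks p27 for degradation. In U118 0 were called higher (1 at an unadjusted p below 0.05) and 7 lower, led by ID1 (-2.04), SKP2 (-1.51), SMAD4 (-1.30) and SP1 (-1.17), a factor of GC boxes. The list's median was -0.24 in U87 and -0.73 in U118, beside -0.245 and -0.522 over all genes. Of all genes, 3.03% were called higher and 7.79% lower in U87, and 8.64% and 26.6% in U118. With median-ratio scaling only ID1 was called lower in U118, SKP2 (-0.99), SMAD4 (-0.78) and SP1 (-0.63) were not called, and TGFB1 was called higher (1.29). In U87 MDM2 was then called higher (1.65) and SKP2 lower, and the medians were -0.01 and -0.35.

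**Figure D5:**
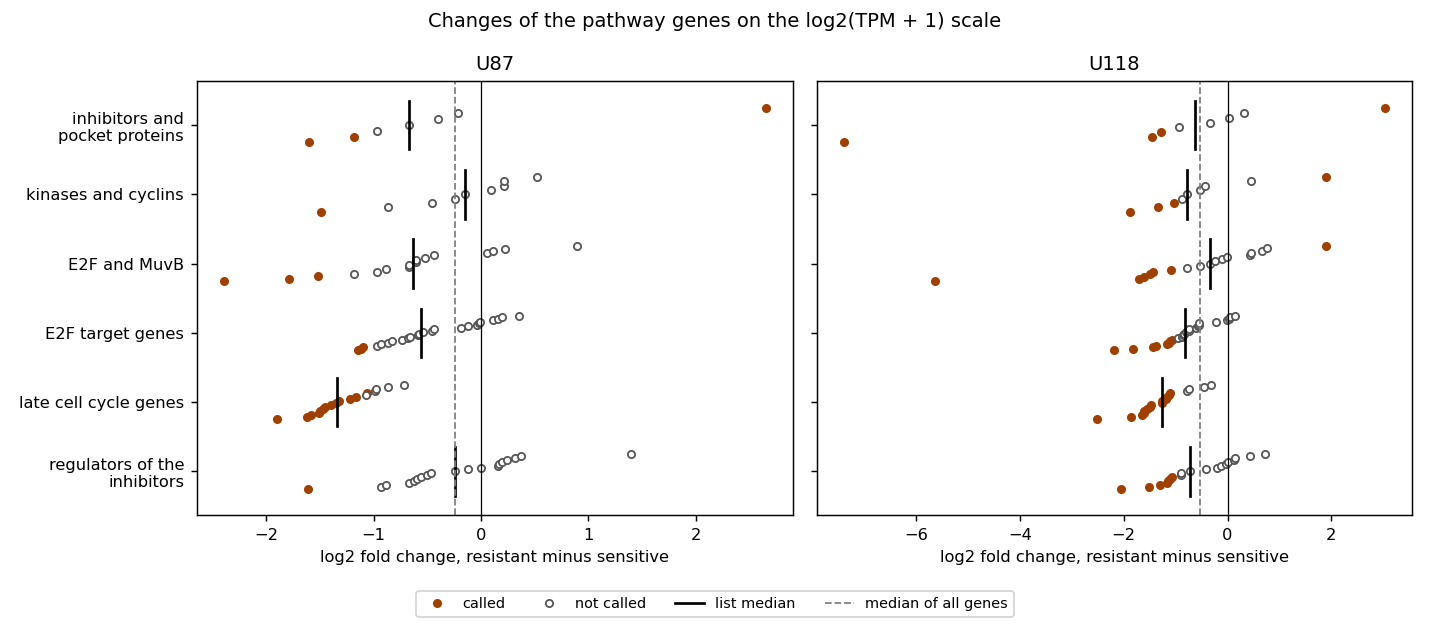
log2 fold change, resistant minus sensitive, of each tested gene of the members and the 5 lists (rows) in U87 (left) and U118 (right), with filled points for called genes, a bar for the list median and a dashed line for the median of all genes. All 18 late cell cycle genes lie left of 0 in both panels for TPM as deposited, though AURKB and MKI67 in U118 do not with median-ratio scaling, and CDKN1A is the only member called on the right.

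Profiles like those of CDKN1A and CDKN3 were sought over the 12 libraries as the smallest root mean square difference of centred log2(TPM + 1), among 16381 genes. Nearest to CDKN1A were SMOC1 (0.45), PTCHD4 (0.46), CYP1B1 (0.51), BTG2 (0.55) and ENSG00000269729 (0.60). BTG2, an antiproliferative gene, was at mean TPM of 3.10 in U87 sensitive and 10.9 in U87 resistant libraries, and of 0.232 and 13.8 in U118. For CDKN3 they were IGF2BP2 (0.25), ZIC1 (0.25), HAUS2 (0.25), LPCAT4 (0.26) and WASF1 (0.27). SMOC1, a secreted calcium-binding protein gene, was at 8.89 and 40.1 TPM in U87 and at 6.29 and 47.1 TPM in U118. The distances are descriptions over 12 libraries that share their groups.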

How the data were processed

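Total RNA from the 12 samples was made into mRNA libraries by the authors, who deposited TPM values per gene in one table for each cell line, with 58174 Ensembl identifiers each. The submitters' processing notes name FastQC 0.11.2, Trimmomatic 0.36, HISAT2 2.0, bedtools 2.26.0 and the build GRCh38. The tool that computed TPM, the annotation and the use of strand are not given in the sources used here. Groups and replicate numbers came from the labels, and 0 columns of values were left unused. No 2 of the 66 pairs of libraries were identical. TPM keeps no counts, so no interval for counting error is given.

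Values were analysed as log2(TPM + 1) with limma 3.58.1 (eBayes with trend) in R 4.3.3, within each line and as an interaction over 12 libraries, with a minimum of 1 TPM in 3 libraries and Benjamini-Hochberg adjustment over all genes tested. The fit was run on simulated data with 200 changed genes and independent noise for each gene. Those data hold no shift shared by all genes of a library, so they cannot show how such a shift affects the calls. Errors of TPM are SDs of 3 libraries. Positions are those of GENCODE 29, which holds 57836 of the identifiers, and 57392 had a symbol in the name table. Promoters were taken from RefSeq, and figures and tables were made with matplotlib 3.10.9 and pandas 2.3.3 in Python 3.11.15.

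The members, the gene lists and the tests were chosen with earlier results of these data known. The text names all 10 members, up to 4 called genes per list and line with the largest change, the neighbours of the INK4 genes, and the 5 nearest profiles of CDKN1A and CDKN3. The rule also covered the nearest profiles of RBL1, and some genes it names are not reported here. The ratios between genes, the sums and ranks of members, and the counts of genes on in one line and off in the other were chosen after values were seen. Alternatives were pseudocounts of 0.1 and 0.001 TPM, no filter, a filter at a mean of 10 TPM, median-ratio scaling, a block for replicate number, eBayes with no trend, no fold threshold, a shared fit of 12 libraries, leaving out each library, and, added after the data were seen, TPM without mitochondrially encoded genes.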

Additional observations from a re-analysis of the deposited data

Results flagged for a closer look

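Differences between the cell lines in the change from sensitive to resistant cells passed the interaction test for 3 of the 8 members tested, a share near the 38.1% of all genes and so no result about the members as a group. For CDKN2C the difference on the log2(TPM + 1) scale was -7.40 (U118 minus U87), which repeats its change in U118, since none of the 6 U87 libraries had a value above 0 and the gene entered the fit only through the U118 sensitive ones. CDKN3 differed by 1.62, with a called fall in U87 and overlapping groups in U118. CDKN1B differed by -1.06, with overlapping groups in U87 and lower values in all 3 libraries labelled U118 resistant. All 3 differences rest on the libraries labelled U118 resistant, which resembled the U87 libraries more than the U118 sensitive ones across genes. Their part in the differences was not tested.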

How the results depend on the processing

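TPM fixes each library's total, and replicates numbered 3 per group, which limits the precision. CDKN1A was called higher in both lines under every alternative. Median-ratio scaling left 1 gene called lower in U87 (CDKN3, against 2) and 1 in U118 (CDKN2C, against 3), and gave 5 differences between the lines in place of 3. On that scale U87 had 663 higher and 543 lower calls, in place of 419 and 1078, and U118 2337 higher and 1981 lower, in place of 1341 and 4134. It turned CDKN1B in U87 to 0.035 (adjusted p = 0.872) and CDKN2D in U118 to 0.20 (adjusted p = 0.598), neither of them called. With each library left out, 2 to 3 U87 members and 2 to 4 U118 members were called lower, 1 was called higher each time, and 1 to 4 differed between the lines. The lowest, 1, came without U118 sensitive replicate 1, 2 or 3, since CDKN2C then reaches 1 TPM in only 2 libraries and leaves the fit. CDKN3 in U118, 0.02 with all libraries, ranged from -0.15 without sensitive replicate 2 to 0.30 without sensitive replicate 3, and was -0.08 without sensitive replicate 1 and -0.0031 without resistant replicate 3. RBL2 in U118 ranged from -0.0061 without resistant replicate 1 to 0.55 without resistant replicate 2. Without U87 sensitive replicate 2 the RB1 difference between the lines was -0.83 (adjusted p = 0.033). The CDKN1B difference had adjusted p from 0.000249 to 0.101 over its alternatives. The labels do not say what a shared number means, so the numbers were not taken to pair samples. The deviations of same-numbered samples had correlations of -0.0671 to 0.0113 in U87 and of 0.0512 to 0.139 in U118. With the replicate block 1 U87 member was called higher and 2 lower, 1 U118 member higher and 3 lower, and 3 differed between the lines, and over all genes 414 U87 genes were higher and 1040 lower and 1363 U118 genes higher and 4218 lower. In U118 each sample correlated best with its own number, and in U87 only resistant replicate 1 did.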
